A study of Danio rerio with 8 samples.

Results

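The genes described here encode the secreted core proteins of matrix heparan sulfate proteoglycans and the testicans in zebrafish. Members were chosen by gene name from a list of 8, and 7 of the 8 matched a row of the deposited table, which holds 32520 genes. They are perlecan (hspg2), agrin (agrn), collagen XVIII (col18a1a), collagen XV (col15a1b) and the testicans spock1, spock2 and spock3. The name col15a1a matched no row and was not analysed here. Of the 7 genes, 5 had enough counts to be tested with all other genes, with at least 47 counts in every library. The 2 others, spock1 and spock3, did not pass the filter on low counts. By the deposited positions 3 of the 7 genes (hspg2, col15a1b and spock1) overlap 1 other gene each, and each of those had 0 counts.

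Expression was measured by RNA-seq of polyadenylated RNA in GFP-positive cells sorted from larvae of the Tg(fli1:EGFP)y1 line at 96 hours post fertilization (hpf). All larvae were labelled wild type and all were injected at the one-cell stage. In 4 libraries the label reads Hpa2 loss-of-function, and these are referred to as LOF-labelled; their larvae had received a morpholino aimed at hpse2 where an exon meets an intron. The other 4, the controls, came from larvae given an equimolar standard control morpholino. A morpholino is an antisense oligomer, and a splice-directed one need not lower the count of its target. Each group holds 2 biological replicates of 2 libraries, numbered 1_1, 1_2, 2_1 and 2_2, and each sort used 60 to 80 pooled larvae. In this line fli1a sequence drives GFP in vascular endothelium and also in cranial neural crest derivatives, so the sorted cells are a mixture.

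A heparan sulfate proteoglycan is a core protein that carries long sulfated sugar chains, which bind growth factors such as FGFs and VEGFs and hold them near the cell. Perlecan, agrin and collagen XVIII are the main secreted heparan sulfate proteoglycans of vertebrate basement membranes, the thin matrix sheets under endothelium and around muscle and nerve. Collagen XV is the close relative of collagen XVIII and lies at the outer face of basement membranes. In mammals its sugar chains are mostly chondroitin sulfate. Testicans are secreted proteoglycans related to the matrix protein SPARC and are best known from the mammalian brain. Hpa2, the product of hpse2, binds heparan sulfate chains without cutting them.

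Totals ranged over 7504508 to 9475118 counts in the LOF-labelled group and 5048839 to 11344918 in the control group. The level of hpse2 was 65.8 ± 20.3 CPM in LOF-labelled libraries and 28.5 ± 5.78 CPM in controls (mean ± SD, n = 4 each; CPM is the count scaled to a common library total). The lowest LOF-labelled level, 47.4 CPM, was above the highest control level, 33.1 CPM (edgeR adjusted p = 0.130). The target's count was thus not lower but higher under the label. A principal component with 40.3% of the variance did not separate the groups. It joined LOF-labelled 2_1 and 2_2 to control 1_1 and 1_2 (the first library set in what follows) and LOF-labelled 1_1 and 1_2 to control 2_1 and 2_2 (the second). Whether both libraries of a biological replicate stem from separate sorts is not in the labels. The consensus correlation within biological replicates was 0.504 in limma-voom, so the 8 libraries were not independent. Tests over 8 libraries that take them as independent therefore measure partly the spread within replicates, which may be technical. With 2 against 2 biological replicates an exact permutation test cannot give a p below 0.333. The labelled cell type was endothelium, and none of 23 endothelial markers was at 0 in all libraries. The marker flt1 was near the floor, at 0.092 ± 0.125 CPM in LOF-labelled libraries and 0.149 ± 0.176 CPM in controls. The VEGF receptor gene kdrl stood at 61.3 ± 23.4 CPM in LOF-labelled libraries and 57.3 ± 23.0 CPM in controls (SD, n = 4 each for both genes). The 23 endothelial markers summed to 899 to 1376 CPM in LOF-labelled libraries and 843 to 1393 CPM in controls. Their sums differed more between the sets, with 843 to 929.7 CPM in the first and 1254 to 1393 CPM in the second. The largest part of each group's mean sum was fli1a, whose sequence drives GFP in this line also in neural crest derivatives. It stood at 474.7 ± 51.9 CPM in LOF-labelled libraries and 482.3 ± 45.9 CPM in controls (SD, n = 4 each). Of the 22 endothelial markers tested, 10 had a log2 fold change above 0 and 12 below, and none was called by edgeR.

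Comparing the groups addresses how the genes for the matrix proteoglycan core proteins are expressed when Hpa2 function is targeted. Collagen XV and testican-2 transcripts were lower in the LOF-labelled libraries, and those of perlecan and agrin were nearly equal in both groups. The mean level of col15a1b in LOF-labelled libraries was 0.592 times that in controls, and that of spock2 was 0.55 times. The collagen XVIII gene col18a1a was somewhat higher, at 1.16 times, and its groups overlapped. No member was called by the edgeR quasi-likelihood test at an adjusted p under 0.05 over all 15559 genes tested, where 0.09% of genes were called. At an unadjusted p under 0.05, 2 of the 5 tested members passed, both lower, against 6.29% of all genes in either direction. The same 2 members had groups that did not overlap, with the LOF-labelled group lower, as did 2.62% of all genes. The median log2 fold change was -0.029 over the 5 tested members and 0.0017 over all genes.

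**Figure D1:**
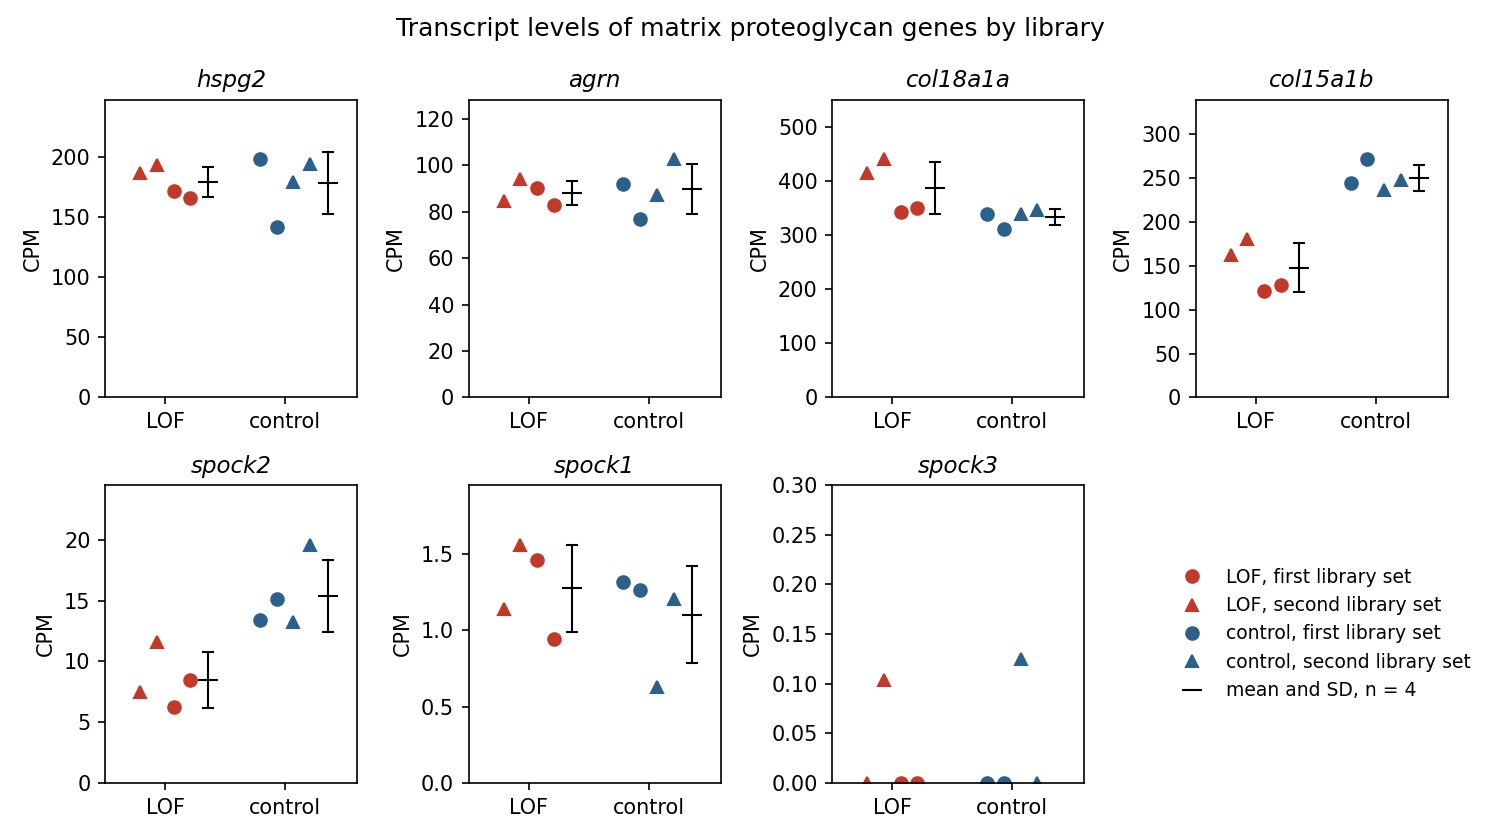
Levels of the 7 genes in CPM (vertical axes, each from 0) in the 4 LOF-labelled and 4 control libraries. Circles mark the first and triangles the second library set, and bars give the mean and SD, omitted for spock3, which had 2 counts in all; for col15a1b the LOF-labelled libraries reach 180.0 CPM at most and the controls start at 237 CPM, and for spock2 these limits are 11.6 and 13.3 CPM.

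The basement membrane cores are taken first. Perlecan is a very large multi-domain protein that binds laminin networks and growth factors. The gene hspg2 (ENSDARG00000076564) lies on the reverse strand of chromosome 23, at 26543716 to 26725637 in GRCz11, the build of all positions here. It stood at 187, 193, 172 and 166 CPM in LOF-labelled 1_1, 1_2, 2_1 and 2_2, against 199, 142, 179 and 195 CPM in controls of the same order. The lowest and the highest value were both in controls, so the LOF-labelled libraries lay inside the control range. The log2 fold change was 0.0062 with an edgeR 95% interval of -0.25 to 0.26 (adjusted p = 0.998), and its sign turned under some alternatives.

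Agrin gathers acetylcholine receptors at the nerve-muscle synapse through Lrp4 and MuSK, and it is also a basement membrane proteoglycan of vessels and kidney. The gene agrn (ENSDARG00000079388) lies on the forward strand of chromosome 23, at 23485858 to 23914687. Its level was 84.7, 94.3, 90.2 and 82.9 CPM in the LOF-labelled libraries, against 92.1, 76.9, 87.1 and 103 CPM in controls. Again the control values were the more widely spread and enclosed all LOF-labelled values. The log2 fold change was -0.029 with an edgeR 95% interval of -0.26 to 0.20 (adjusted p = 0.985), also with a sign that turned under some alternatives. For both genes the interval leaves room for differences at least as large as its bounds and does not show that the groups are equal. The interval takes the 8 libraries as independent. In limma-voom with biological replicate as a random effect the SE was 0.162 for hspg2 and 0.15 for agrn. The edgeR fit gave 0.116 and 0.104.

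Collagen XVIII and collagen XV form the multiplexin family, collagens whose helical part is interrupted many times. Their C-terminal ends are released as the fragments endostatin and restin, which act against vessel growth in mammalian assays. The annotation deposited with the counts gives both genes the endostatin domain, and col18a1a also a frizzled-type domain. The gene col18a1a (ENSDARG00000036558) lies on the forward strand of chromosome 9, at 41821613 to 41979505. Its level was 414, 439.9, 342 and 350.0 CPM in LOF-labelled libraries 1_1 to 2_2 and 338, 312, 338 and 346 CPM in controls. Both libraries of LOF-labelled replicate 1 stood above all others, and the groups overlapped through LOF-labelled 2_1. The log2 fold change was 0.21 (SE 0.10, edgeR 95% interval -0.018 to 0.44, adjusted p = 0.812). The exact two-sided permutation test over the 8 libraries gave p = 0.0571, and p = 0.171 without scaling beyond the total count. Within the library sets the difference of mean log2 CPM was 0.091 (first) and 0.32 (second).

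The gene col15a1b (ENSDARG00000061848) lies on the reverse strand of chromosome 2, at 23936954 to 24022085. Its level was 162, 180.0, 121 and 128.5 CPM in LOF-labelled 1_1, 1_2, 2_1 and 2_2, against 244, 271, 237 and 248 CPM in controls of the same order. These are counts of 913 to 1731 in LOF-labelled libraries and 1292 to 2876 in controls, so counting error was small. Every LOF-labelled library lay below every control, and the 2 libraries of LOF-labelled replicate 2 were the lowest. The log2 fold change was -0.76 (SE 0.13, 95% interval -1.04 to -0.47, edgeR adjusted p = 0.0716), which missed the threshold. The exact two-sided permutation test gave p = 0.0286, the smallest that 70 arrangements allow, and the gene was chosen with this difference already known. Within the library sets the difference was -1.04 (first) and -0.50 (second), in the same direction but of unequal size. Controls of the 2 biological replicates were alike, at 258 and 242 CPM, and the LOF-labelled replicates differed, at 171 CPM for replicate 1 and 125 CPM for replicate 2.

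The call for col15a1b differed among the 21 alternatives, of which 6 called it, and the cause was not tested. It was called by DESeq2 (adjusted p = 1.43e-04; 0.611% of all genes were called), with sample weights in limma-voom (adjusted p = 0.00579; 0.45% of genes) and by edgeR without a low-count filter (adjusted p = 0.0159; 0.127% of genes). It was also called by edgeR without LOF-labelled 1_2 (adjusted p = 0.0367; 0.127% of genes) and with the number of the biological replicate as a block (adjusted p = 0.0375; 0.109% of genes), although these numbers do not pair the samples. It was not called with the library number as a block in edgeR (adjusted p = 0.427), or in limma-voom with biological replicate as a random effect (adjusted p = 0.131). A block for the library sets, chosen after the data were seen, called col15a1b and spock2 and 2.55% of genes. Counts summed per biological replicate, 2 against 2, gave the same size of difference, -0.75, with an edgeR adjusted p of 1.00 and 0% of genes called. That fit had 299 genes at an unadjusted p under 0.05.

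Per kilobase of gene length, the unit in which levels of different genes can be compared, collagen XV and collagen XVIII were level with each other in controls and far apart in the LOF-labelled libraries. The gene col15a1b stood at 30.8 ± 5.81 CPM per kilobase in LOF-labelled libraries and 52.1 ± 3.14 in controls, both as mean ± SD with n = 4. The gene col18a1a stood at 58.9 ± 7.31 in LOF-labelled libraries and 50.8 ± 2.26 in controls. In controls their ranges overlapped, and in LOF-labelled libraries the lowest col18a1a value, 52.1, was above the highest col15a1b value, 37.5. As a share of the summed per-kilobase level of the 7 genes, col15a1b made up 23.7 to 27.1% in LOF-labelled libraries and 36.3 to 42.7% in controls. The share of col18a1a was 48.4 to 49.7% in LOF-labelled libraries and 35.8 to 38.7% in controls. Shares of the same sum are tied, so a lower col15a1b level by itself raises the share of col18a1a. These shares are descriptions without a test.

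**Figure D2:**
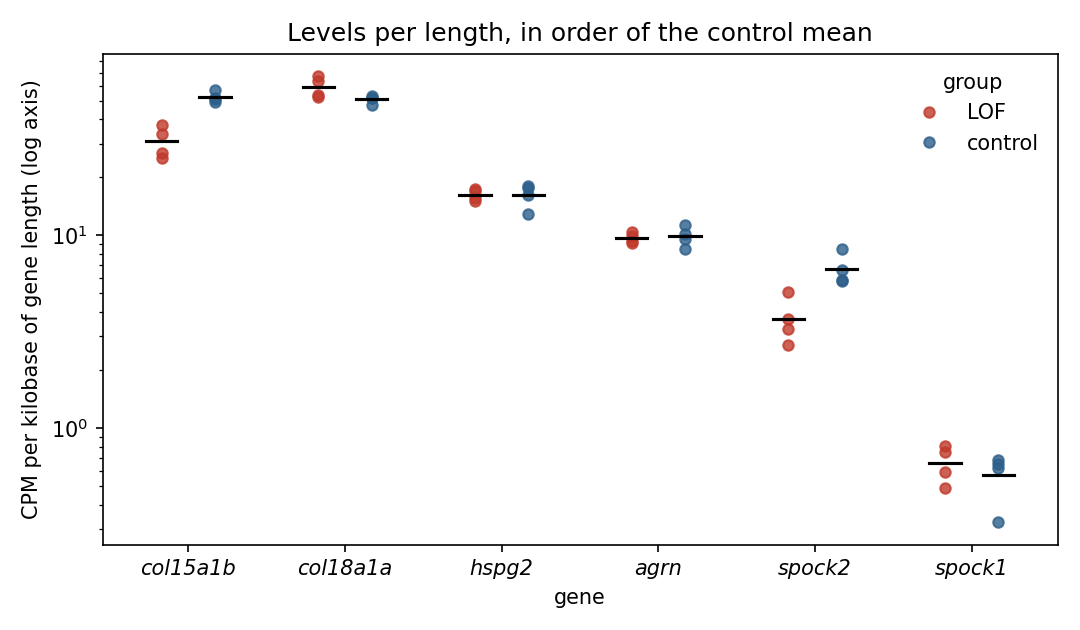
Levels per kilobase of gene length (log axis) for 6 genes, ordered by their control mean, with a point for each library and a bar for each group mean. In controls col15a1b and col18a1a lead, at 52.1 and 50.8, followed by hspg2 at 16.2, agrn at 9.90, spock2 at 6.69 and spock1 at 0.57 CPM per kilobase in controls.

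The other genes followed in the same order in both groups. Perlecan stood at 16.3 ± 1.14 CPM per kilobase in LOF-labelled libraries and 16.2 ± 2.33 in controls. Agrin stood at 9.72 ± 0.577 in LOF-labelled libraries and 9.90 ± 1.19 in controls. Testican-2 stood at 3.68 ± 1.01 in LOF-labelled libraries and 6.69 ± 1.29 in controls. The ranges of agrin and testican-2 touched in controls, where agrin began at 8.49 and testican-2 reached 8.55, and did not touch in LOF-labelled libraries, where agrin began at 9.15 and testican-2 reached 5.07. Gene lengths are those deposited with the counts, and the evenness of coverage along long transcripts was not tested.

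Within each library the ratio of the collagens does not depend on library scaling. The log2 ratio of col15a1b to col18a1a was -1.35, -1.29, -1.50 and -1.44 in LOF-labelled 1_1, 1_2, 2_1 and 2_2, against -0.47, -0.20, -0.51 and -0.48 in controls. The groups were well apart, with a mean of -1.39 ± 0.094 in LOF-labelled libraries and -0.42 ± 0.146 in controls (SD, n = 4 each). Within the library sets the difference was -1.14 (first) and -0.82 (second). This ratio was chosen after the values were seen and is given without a test. It reuses the col15a1b levels above, so it is not separate support for a difference in col15a1b.

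**Figure D3:**
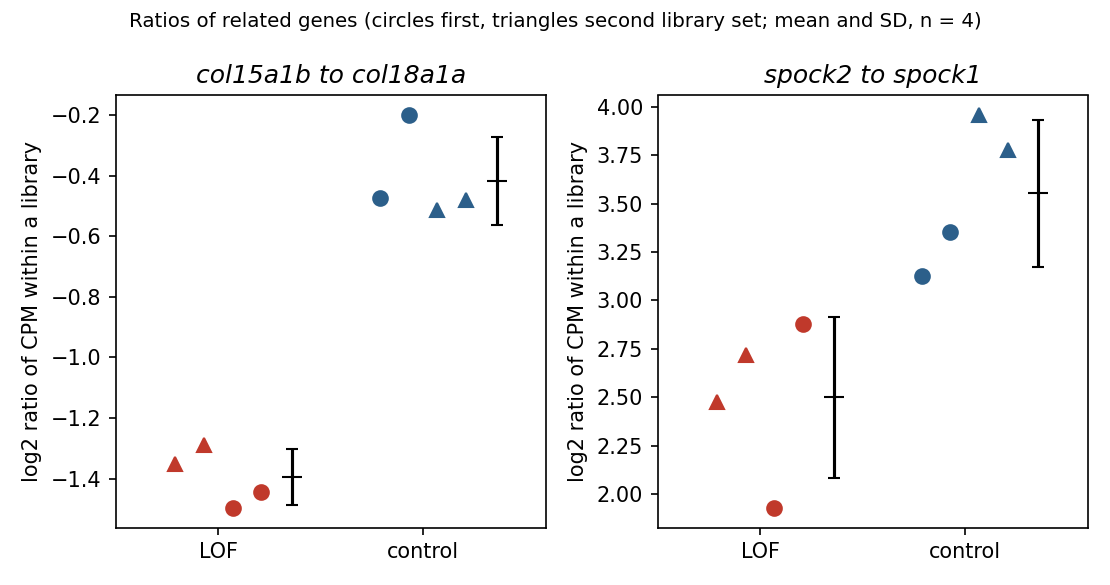
Log2 ratios of CPM within a library for col15a1b to col18a1a (left) and spock2 to spock1 (right), with circles for the first and triangles for the second library set and the mean and SD beside each group (n = 4). The mean is -1.39 in LOF-labelled libraries and -0.42 in controls for the collagens, and 2.50 in LOF-labelled libraries and 3.55 in controls for the testicans.

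The testicans share, per the deposited annotation, a Kazal-type inhibitor domain, the calcium-binding region of SPARC and a thyroglobulin repeat. In human cell assays testicans have been linked to the control of membrane-bound matrix metalloproteinases. The gene spock2 (ENSDARG00000075393), for testican-2, lies on the forward strand of chromosome 13, at 30054996 to 30132256. Its level was 7.46, 11.6, 6.23 and 8.48 CPM in the LOF-labelled libraries, against 13.4, 15.1, 13.3 and 19.6 CPM in controls. All LOF-labelled libraries were below all controls, with a narrow gap between LOF-labelled 1_2 and control 2_1. The counts behind these values were 59, 112, 47 and 63 in LOF-labelled libraries and 112, 72, 106 and 228 in controls. The log2 fold change was -0.86 (SE 0.22, 95% interval -1.34 to -0.38, edgeR adjusted p = 0.351), and the exact two-sided permutation test gave the smallest possible p of 0.0286. Within the library sets the difference was -0.95 (first) and -0.78 (second). Of the 21 alternatives only the edgeR block for library sets, chosen after the data were seen, called spock2 (adjusted p = 0.00914). DESeq2 gave an adjusted p of 0.0653. With the library number as a block edgeR gave an adjusted p of 0.97, and fits that left out a library gave 0.153 to 0.733. The gene was not called with biological replicate as a random effect or with sums per biological replicate.

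Testican-1 was barely detected. The gene spock1 (ENSDARG00000074644; chromosome 14, 2661646 to 2933266, reverse strand) had 9, 15, 11 and 7 counts in the LOF-labelled libraries and 11, 6, 5 and 14 in controls. The ratio of its summed counts, 42 in LOF-labelled libraries and 36 in controls, relative to the library totals was 1.18, with an exact 95% interval of 0.739 to 1.9 that covers counting error only. Testican-3 (spock3, ENSDARG00000070266; chromosome 1, 20635190 to 20706296, forward strand) had 1 count in LOF-labelled 1_2, 1 in control 2_1 and 0 in the other libraries. Its level cannot be compared at this depth.

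The log2 ratio of spock2 to spock1 was 2.48, 2.72, 1.93 and 2.88 in the LOF-labelled libraries, against 3.13, 3.35, 3.96 and 3.78 in controls. The groups did not overlap, and the means differed by -1.05 (exact two-sided permutation p = 0.0286, the smallest possible). Without LOF-labelled 2_1 the difference was -0.86 and the exact permutation p was 0.0571. The spock1 side of this ratio rests on 5 to 15 counts in each library. The ratio reuses the spock2 values tested above, so it is not separate support for a difference in spock2. Its test was chosen with earlier results known and treats the 2 libraries of a biological replicate as independent.

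**Figure D4:**
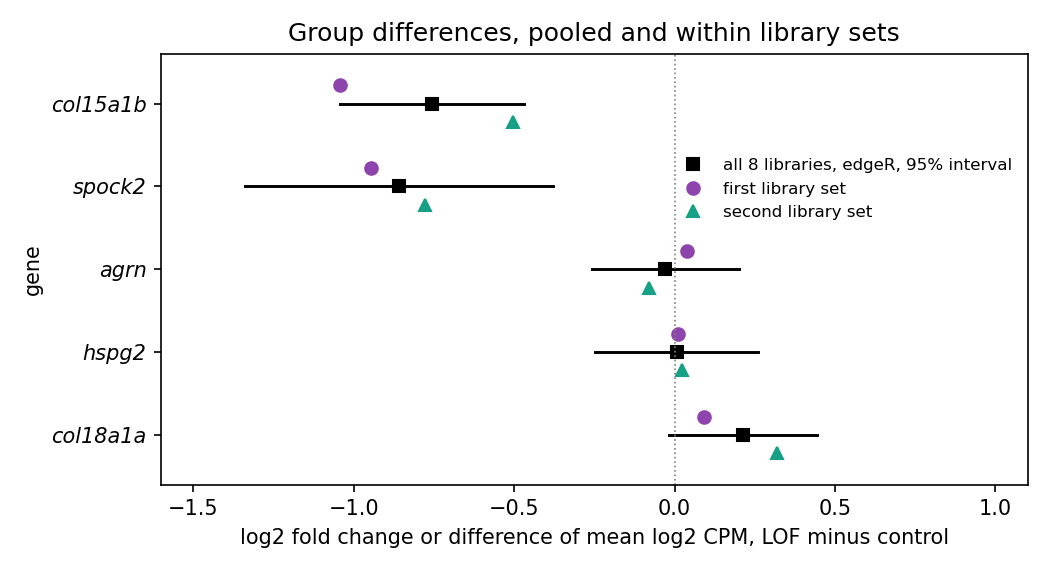
Differences between LOF-labelled and control libraries on the log2 scale for the 5 tested genes. Squares and lines give the edgeR log2 fold change with its 95% interval, circles the first and triangles the second library set; col15a1b (-0.76) and spock2 (-0.86) lie left of 0 in both sets, and agrn, hspg2 and col18a1a have intervals that include 0.

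Across the 8 libraries 2 pairs of members had the most alike patterns. The Pearson correlation of log2 CPM was 0.905 between col15a1b and spock2 and 0.822 between hspg2 and agrn, and the other 8 pairs lay between -0.356 and 0.542. Both genes of the first pair were lower in every LOF-labelled library than in any control. Both genes of the second pair were lowest in control 1_2, the library with the smallest total. The 8 libraries share groups, library sets and, in pairs, a biological replicate, so the correlations are descriptions only. Among 11821 named genes with a mean log2 CPM of at least 1, those most like col15a1b were thrombospondin 1b (thbs1b, r = 0.993), ccn6 (0.992) and the hyaluronan-binding heavy chain itih1 (0.991). Those most like spock2 were elob (0.95), eps8l2 (0.944) and copa (0.943). The closest genes were foxp2, prss23 and rnf150b for col18a1a (0.978 to 0.983) and senp5, mark2a and dcaf6 for agrn (0.955 to 0.981). Among those close to hspg2 were idua (0.96) and znf1107 (0.956). Of the 11821 genes, 102 had a correlation over 0.9 with col15a1b, 24 with spock2, 134 with col18a1a, 39 with hspg2 and 8 with agrn.

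No member of the related gene lists was called by edgeR over all genes. Laminins, collagen IV chains and nidogens, the proteins of the basement membrane that perlecan and collagen XVIII attach to, had 15 of 19 tested members above 0 and a median of 0.14. The smallest p there belonged to laminin alpha 2 (lama2, 0.37, adjusted p = 0.588) and laminin gamma 3 (lamc3, 0.25, adjusted p = 0.760). Syndecans, glypicans and betaglycan, the cell-surface carriers of heparan sulfate, had 8 of 10 above 0 and a median of 0.054, with gpc6a at 0.41 (adjusted p = 0.542) and gpc5a at -0.52 (adjusted p = 0.569).

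Relatives of SPARC outside the testicans had 3 of 5 above 0 and a median of 0.046, with smoc1 at 0.43 (adjusted p = 0.543) and fstl1a at -0.28 (adjusted p = 0.894). The agrin receptor complex had 4 of 11 matched genes tested, with the agrin receptor lrp4 at 0.43 (adjusted p = 0.813), the acetylcholine receptor subunit chrna1 at -0.065 (adjusted p = 0.993), and 3 of 4 above 0 (median 0.013). Genes that build and sulfate the chains had 14 of 30 above 0 and a median of -0.014, with papss2b (-0.59, adjusted p = 0.0618) and ext1c (-0.94, adjusted p = 0.0716) lowest in p. Genes that process chains or cores had 12 of 16 above 0 and a median of 0.14, with hpse2 at 1.20 (adjusted p = 0.130) and the procollagen protease bmp1a at 0.22 (adjusted p = 0.767). That list counts hpse2, the target of the morpholino, although Hpa2 binds the chains without cutting them.

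**Figure D5:**
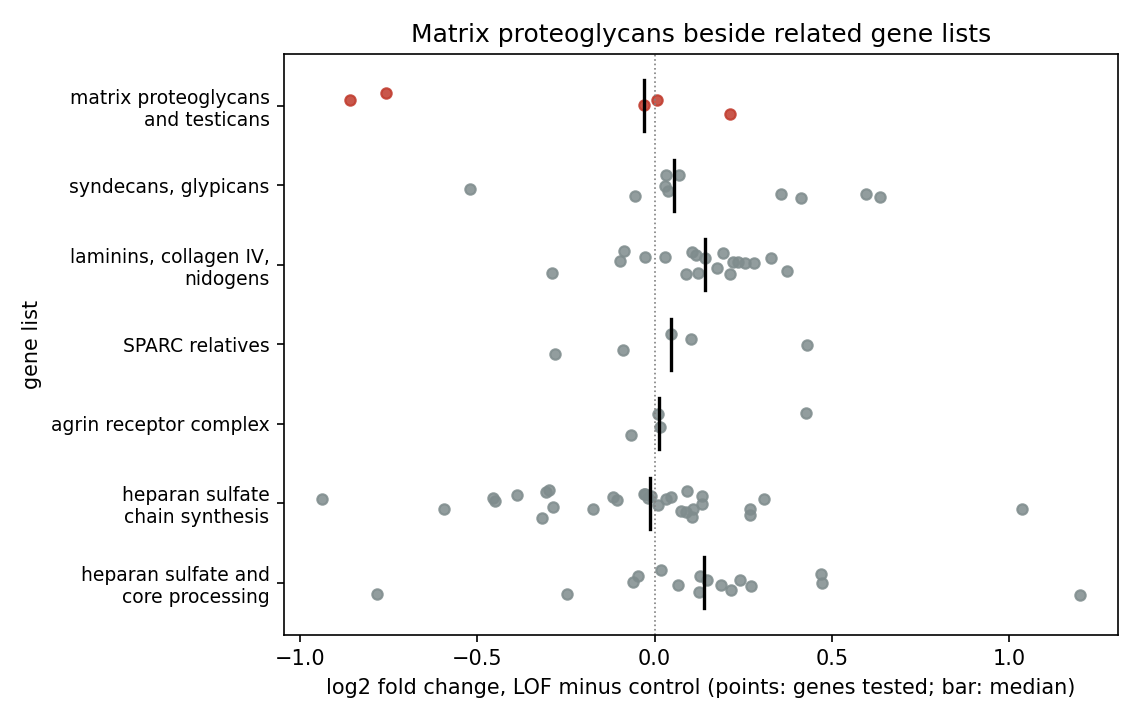
Log2 fold change, LOF-labelled minus control, of every tested gene in the matrix proteoglycan group (red) and in 6 related lists (grey), with a bar at each median. The matrix group has a median of -0.029 with 2 genes below -0.7, and laminins, collagen IV and nidogens have a median of 0.14.

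The summed levels of neural crest and cartilage, neuronal and notochord markers were lower in the LOF-labelled libraries than in controls, without overlap, as were col15a1b and spock2. The 25 neural crest and cartilage markers summed to 24590 to 35360 CPM in LOF-labelled libraries and 39090 to 42260 CPM in controls. Of 23 tested, 20 were below 0 and 3 above, with a median of -0.60. The edgeR test called 3 lower (acana, sox10 and matn1), where 0.09% of all genes were called. At an unadjusted edgeR p under 0.05, 17 were lower and 1 was higher, against 6.29% of all genes in either direction. The marker snorc was at 0 in all libraries. The lowest sums of these markers were in LOF-labelled replicate 2, as were the lowest levels of col15a1b. The 24 neuronal markers summed to 404 to 439 CPM in LOF-labelled libraries and 444 to 554 CPM in controls, with 18 of 20 tested below 0, none called, and the motor neuron marker mnx1 at 0 in all libraries. Notochord markers summed to 1701 to 2680 CPM in LOF-labelled libraries and 2930 to 3186 CPM in controls. That sum is mostly col9a1a, which is also a cartilage marker; 4 of the 8 notochord markers tested were below 0, with a median log2 difference of 0.0062, and col8a1a was at 0 counts. The part of these cell types in the levels of col15a1b and spock2 was not tested, and in sorted bulk RNA fewer cells of a type cannot be told apart from less RNA per cell.

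The other marker sums overlapped between the groups. Fibroblast markers summed to 46500 to 57930 CPM in LOF-labelled libraries and 39540 to 48060 CPM in controls, with 18 of 21 tested above 0, a median log2 difference of 0.15 and 1, tnxba, called lower. Mural cell markers summed to 1338 to 1828 CPM in LOF-labelled libraries and 1065 to 1663 CPM in controls, with 12 of 13 tested above 0, a median of 0.23 and none called. The mural sums split by library set, with 1065 to 1376 CPM in the first and 1651 to 1828 CPM in the second. Glial markers summed to 769.6 to 815.8 CPM in LOF-labelled libraries and 586 to 777 CPM in controls. Most of that sum is glula, at 544.8 ± 6.26 CPM in LOF-labelled libraries and 441.2 ± 42.5 CPM in controls (SD, n = 4 each), while 6 of 9 glial markers tested were below 0, with a median of -0.19 and none called. The glial markers slc1a3b, mbpa and gfap, the last too low to be tested, were lower in every LOF-labelled library than in any control. Of all genes tested, 2.62% had this pattern. The marker glula was higher in every LOF-labelled library than in any control, and the groups overlapped for the remaining glial markers. Epidermal markers summed to 264 to 303 CPM in LOF-labelled libraries and 241 to 301 CPM in controls, with krt5, epcam and cldni at 0 in all libraries. Photoreceptor and lens markers summed to 127 to 253 CPM in LOF-labelled libraries and 99.7 to 809 CPM in controls. These sums differed by library set, with 248 to 809 CPM in the first and 99.7 to 138 CPM in the second. In the second set the lowest sum, 99.7 CPM, was in a control, and the LOF-labelled sums began at 127 CPM. The LOF-labelled sums thus did not lie below the controls there, whereas col15a1b and spock2 were lower in both sets. Over the 8 libraries together all 12 photoreceptor and lens markers tested were below 0, with a median of -1.58. Of these, 8 had an unadjusted edgeR p under 0.05 and none was called by edgeR, and opn1lw1 and cryaa were at 0 in all libraries. Their part in the levels of col15a1b and spock2 was not tested. Muscle markers summed to 109.9 to 3125 CPM in LOF-labelled libraries and 374 to 1783 CPM in controls, and blood and leukocyte markers to 847 to 2305 CPM in LOF-labelled libraries and 989 to 2200 CPM in controls. The muscle marker mylpfa and the blood marker alas2 were at 0 in all libraries.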

How the data were processed

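The deposited file holds raw read counts per gene, with gene names, positions and lengths. Positions refer to GRCz11, the build named in the submitters' processing notes. Aligner, counting software and strand handling are not given in the sources consulted. Columns were assigned to samples through the sample descriptions, and 0 columns were left unassigned. Genes with low counts were removed with filterByExpr, which left 15559 of 32520 genes. Groups were then compared by edgeR (version 4.0.16, R 4.3.3) with its quasi-likelihood test (TMM scaling, robust dispersions, no replicate block, Benjamini-Hochberg adjustment over all genes, threshold 0.05). Standard errors and 95% intervals were derived from the F statistic. CPM used TMM-scaled library sizes, log2 CPM a prior count of 2, and marker sums the unscaled totals. Single genes were also compared with exact permutation tests over the 70 arrangements of 8 libraries.

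The members, 18 gene lists (330 entries, 320 matched) and the tests were chosen with earlier results of these data known. The genes named are all members, the 2 of smallest p in each related list, called markers and the 3 genes most like each tested member, of which 1 is not reported here; defining markers at 0 counts and col18a1b were named after their values were seen. Alternatives were other scalings and filters, DESeq2 1.42.0, limma 3.58.1 with voom, replicate blocks, a random effect for biological replicate, counts summed within each biological replicate and the omission of each library. The edgeR script was checked on simulated independent counts, with larger changes than those of the members and no replicate or library-set structure. That check bears on the script and not on error rates in these data. No 2 libraries held identical values.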

Additional observations from a re-analysis of the deposited data

Results flagged for a closer look

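Among the 12 groups of 4 libraries examined (6 genes in 2 groups), 1 held a library far from the rest, and chance gives about 1 in 20. The level of spock1 was 0.626 CPM in control 2_1, from 5 counts, whereas the other 3 controls lay between 1.21 and 1.32 CPM. Those 3 controls had 11, 6 and 14 counts in 1_1, 1_2 and 2_2.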

How the results depend on the processing

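The log2 fold changes of col15a1b, spock2 and col18a1a kept their direction in all 21 alternatives run. Leaving out each library gave -0.87 to -0.66 for col15a1b, -1.06 to -0.71 for spock2 and 0.14 to 0.28 for col18a1a. The sign of hspg2 turned with sample weights (-0.070), with sums per biological replicate (-0.029) and when single libraries were left out (-0.088 to 0.068), and that of agrn only among the fits that left out a library (-0.094 to 0.039).

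The count of members called, 0 of 5 at first, was 1 (col15a1b) without a low-count filter, with DESeq2, with sample weights and with the biological replicate number as a replicate block (adjusted p = 0.0375), and 0 to 1 when libraries were left out. Over all genes edgeR called 14; the count was 32 without a low-count filter, 95 with DESeq2, 70 with sample weights, 5 with biological replicate as a random effect (340 at an unadjusted p under 0.05), 0 with sums per biological replicate (299) and 0 with the library number as a replicate block (524). It ranged from 0 to 20 when libraries were left out: 3 without LOF-labelled 1_1, 20 without LOF-labelled 1_2, 0 without LOF-labelled 2_1, LOF-labelled 2_2 or control 1_1, 5 without control 1_2, 8 without control 2_1 and 6 without control 2_2. The cause of these differences was not tested.

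Libraries of the same number did not deviate together (correlations of -0.338 to -0.23), so the numbers do not pair the samples. A crossed replicate block, chosen after the data were seen, called 396 genes and 2 members, col15a1b and spock2. The spock2 to spock1 difference was -1.035 with sums per biological replicate (2 against 2, where the smallest exact permutation p is 0.333) and -1.052 in the replicate block (smallest exact p 0.125), and -1.19 to -0.86 when libraries were left out; the col15a1b to col18a1a difference was -1.01 to -0.91. Planned ratios to spock3 (2 counts in all) and to col15a1a (no row) were not computed, and the adjustment planned over the ratios was not made. Depth limits spock1 and spock3.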

Other observations

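The second zebrafish collagen XVIII gene, col18a1b, was far less abundant than col18a1a. Its level was 22.8, 26.9, 16.8 and 19.8 CPM in LOF-labelled 1_1, 1_2, 2_1 and 2_2, against 12.4, 15.1, 18.2 and 19.9 CPM in controls of the same order. Its log2 fold change was 0.39 (SE 0.19, edgeR adjusted p = 0.810), of the same sign as that of col18a1a and with overlapping groups. Within the library sets the difference was 0.41 (first) and 0.38 (second).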
